A study of Sus scrofa with 9 samples.

Results

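The 10 genes described here are 6 transcription factors of the mesenchymal transition (ZEB1, ZEB2, SNAI1, SNAI2, TWIST1 and TWIST2), 3 cadherins (CDH2, CDH11 and CDH13) and the intermediate filament gene VIM. They were chosen by gene symbol, and 10 of 10 were found among the 19535 gene rows of the count table. ZEB and Snail proteins are zinc finger repressors, and Twist proteins are basic helix-loop-helix factors. They are best known for silencing epithelial adhesion genes when epithelial or endothelial cells become mesenchymal, a change that forms the valve cushions of the embryonic heart. Classical cadherins join neighbouring cells through calcium-dependent contacts and are tied to actin by catenins inside the cell. N-cadherin (CDH2) and OB-cadherin (CDH11) are the forms typical of mesenchymal cells, and T-cadherin (CDH13) is held in the membrane by a lipid anchor.

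Bulk RNA was sequenced from wild-type porcine valvular interstitial cells (PVICs), the fibroblast-like cells of the aortic valve leaflet, grown from pigs aged 4 to 5 months after the endothelium was scraped away. All cultures were kept in DMEM with fetal bovine serum. The control group received no addition. The OIM group received osteogenic induction medium, which supplied insulin, ascorbic acid at 50 µg/mL and sodium dihydrogen phosphate at 2 mmol/L. The bFGF group received the same OIM together with 50 ng/mL basic fibroblast growth factor. No group received bFGF without OIM. Each group had 3 libraries, harvested on day 3 per the labels, whereas the study's methods give a shorter treatment and another library kit. Nothing states that replicates were separate cultures or animals, so p-values measure the spread between these libraries, which may be technical.

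Gene counts summed to between 57075793 and 64723837 per control library, 57682710 and 67371523 per OIM library and 46773376 and 48270827 per bFGF library. Levels are given as CPM (counts scaled to a common library size) scaled by the trimmed mean of M-values (TMM). A gene was called when edgeR's quasi-likelihood test gave an adjusted p of at most 0.05 and a log2 fold change of at least 0.5 in either direction. The summed level of 10 interstitial markers was 59390 to 64782 CPM in control, 56230 to 59603 CPM in OIM and 30230 to 30763 CPM in bFGF libraries. Among the markers, 6 epithelial genes summed to at most 0.322 CPM, 8 leukocyte genes to 9.01 to 18.0 CPM with CD3E at 0, and 5 melanocyte genes to 1.21 to 2.66 CPM. OIM replicate 2 stood apart from the other OIM libraries in several genes, with 3002 counts of the lamin gene LMNB1 against 1658 and 1692, and 133 counts of desmin (DES) against 266 and 298. Without it 1 call among the 10 genes was lost, that of CDH2 in OIM. In bulk RNA, fewer cells of a type and less RNA per cell cannot be told apart.

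ZEB and Snail proteins bind the E-box CAGGTG, which reads CACCTG on the other strand, and the classical target is the promoter of E-cadherin (CDH1). The sequences below were read from the Sscrofa11.1 genome, the build named for these data, to show where these letters lie upstream of the annotated RefSeq starts of CDH1 and of the members that carry the E-box there. They are written 5′ to 3′ on the strand of the gene, with the E-box in capitals.
CDH1 (chr6:18155987-18156086, minus strand, 100 bases up to the start): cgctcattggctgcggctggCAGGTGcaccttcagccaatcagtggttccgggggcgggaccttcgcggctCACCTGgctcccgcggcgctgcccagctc
ZEB1 (chr10:42012989-42013034, plus strand): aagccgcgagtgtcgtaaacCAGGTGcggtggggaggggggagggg
SNAI1 (chr17:51546322-51546367, plus strand): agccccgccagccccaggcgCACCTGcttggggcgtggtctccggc
CDH2 (chr6:112629274-112629319, minus strand): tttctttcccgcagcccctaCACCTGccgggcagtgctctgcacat

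Within a window from 250 bases before to 50 bases after the start, searched on both strands, 4 of the 10 members held this E-box. They were ZEB1 (first base at -105 and again at +15 from the start), SNAI1 (-104), SNAI2 (+35) and CDH2 (-226). The same letters occurred in 22.5% of the 19534 promoters searched. CDH1 held 3 copies, at -80, -29 and +23. The E-boxes CATATG (in 6.7% of promoters) and CATCTG or CAGATG (in 14.3%) were found in neither the members nor CDH1. A match is a string of letters and does not show that a factor was bound. The CDH1 transcript itself was listed at 0 counts in 8 of 9 libraries and at 2 counts in OIM replicate 2.

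Per kilobase of exon, VIM had the highest level of the 10 genes in each group and TWIST2 the lowest. In control libraries the order was VIM (2140 ± 36.3 CPM per kb, SD, n = 3), CDH11 (61.0 ± 1.01), ZEB2 (26.4 ± 0.579), ZEB1 (24.9 ± 0.396), SNAI2 (18.5 ± 0.697), SNAI1 (15.6 ± 0.743), TWIST1 (11.5 ± 0.174), CDH2 (8.55 ± 0.739), CDH13 (7.07 ± 0.222) and TWIST2 (2.84 ± 0.705). No neighbours in that order had overlapping control libraries. Exon length was taken over all annotated transcripts, 5 for ZEB2 and 6 for CDH11 but 1 for ZEB1, CDH2 and CDH13. Errors in that length are not part of the spread between libraries. In OIM, ZEB1 and ZEB2 overlapped, at 28.4 ± 0.224 and 27.8 ± 0.929 CPM per kb, as did TWIST1 and CDH2, at 12.9 ± 0.615 and 12.1 ± 0.381. In bFGF libraries CDH2 stood at 19.2 ± 0.590 CPM per kb, above SNAI1 (17.1 ± 0.334), TWIST1 (15.6 ± 0.690) and SNAI2 (12.7 ± 0.520), and only ZEB2 and ZEB1 overlapped. SNAI2 thus stood above SNAI1 and TWIST1 in control and OIM and below both with bFGF. Averaged over all libraries, VIM was 7th of 13643 genes in level per kb, CDH11 ranked 821, ZEB2 2033 and ZEB1 2105. SNAI2 (3306), SNAI1 (3524), TWIST1 (4053), CDH2 (4059) and CDH13 (5744) followed, and TWIST2 ranked 8149.

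**Figure D1:**
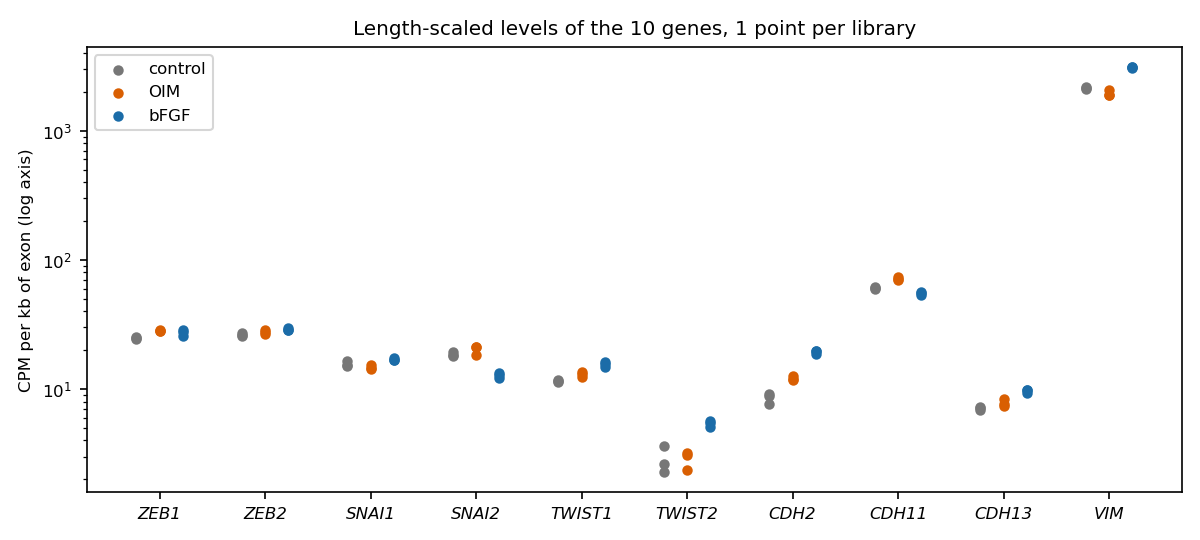
Level of each of the 10 genes in CPM per kb of exon, on a log axis, with 1 point per library coloured by group. VIM averages 2140 in control and 3085 with bFGF, TWIST2 averages 2.84 and 5.39, and CDH2 averages 8.55 and 19.2.

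Compared with control, OIM was followed by 1 call among the 10 genes, the higher CDH2, by edgeR with Benjamini-Hochberg adjustment. This was 1 of 10 called higher against a background of 1.49% of the 13662 genes tested, and 0 of 10 called lower against 0.864%. At an unadjusted p under 0.05 with the same fold limit 0 members were lower, without the fold limit 1 was (VIM), and DESeq2 called 0 lower. The OIM and control libraries did not overlap for 6 of 10 members, 5 higher and 1 lower, against 28.8% of all genes tested. The median log2 fold change was 0.14 over the members and -0.0019 over all genes.

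With bFGF added to OIM, 3 of 10 members were called higher (CDH2, TWIST2 and VIM), where the background was 17.7%, and 1 of 10 lower (SNAI2), where it was 18.4%. The bFGF and OIM libraries did not overlap for 8 of 10 members, with ZEB1 and ZEB2 the exceptions, against 72.1% of all genes. Set against control, bFGF gave calls for those 4 genes too, 3 of 10 higher against 18.9% and 1 of 10 lower against 20.0%. Here 10 of 10 members had groups that did not overlap, against 73.7% of all genes. Both bFGF comparisons use the same bFGF libraries, and the comparisons with OIM share the OIM libraries, so they are not independent of each other. The median log2 fold change of the members was 0.24 against OIM (-0.0029 over all genes) and 0.28 against control (-0.016 over all genes).

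**Figure D2:**
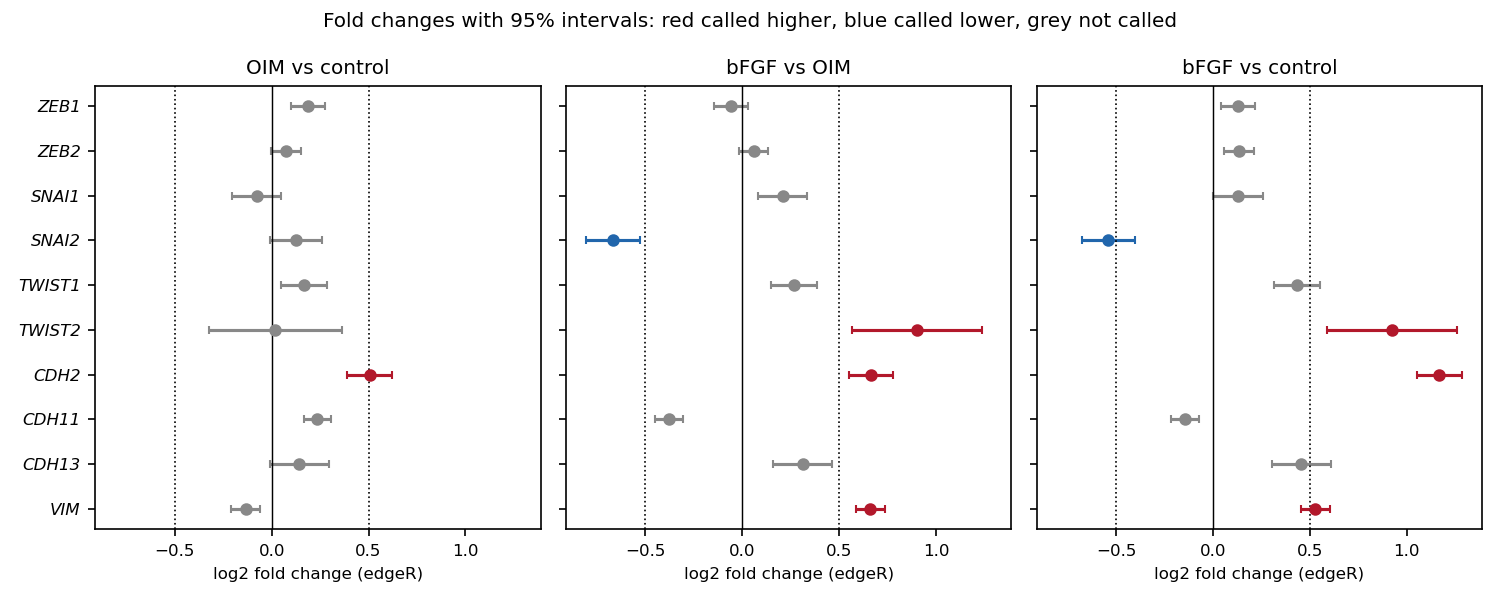
Log2 fold changes with 95% intervals (edgeR) of the 10 genes in 3 comparisons, with dotted lines at the fold limit of 0.5. CDH2 alone is called for OIM against control (0.51), and CDH2, TWIST2, VIM and SNAI2 are called in both bFGF comparisons.

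These bFGF values depend on how libraries are scaled, since the TMM factors were 0.937 to 0.967 in control and OIM libraries and 1.10 to 1.11 in bFGF libraries. With library totals alone the median of all genes moved to 0.22 for bFGF against OIM and 0.21 for bFGF against control. The share of all calls that were higher moved from 49.0% to 68.8% and from 48.5% to 68.1%, respectively. On that scale SNAI2 lay at -0.45 and -0.32 and was not called, and relative to the median of all genes it lay at -0.66 and -0.52.

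Neither ZEB gene was called in any of the 3 comparisons. ZEB1 lies at chr10:42013114-42216139 on the plus strand, annotated as 11 exon intervals, some of them only a few bases apart. It had 134.9, 130.7 and 132.3 CPM in the control libraries, 149.9, 152.2 and 150.6 CPM in OIM and 145.9, 153.6 and 135.8 CPM in bFGF. Each OIM library lay above each control library, and the bFGF libraries spread across the OIM values. The log2 fold change was 0.19 for OIM against control (SE 0.042, edgeR adjusted p = 0.0047), under the fold limit. For bFGF against OIM it was -0.056 (95% interval -0.14 to 0.031, edgeR adjusted p = 0.244), a sign that turned to 0.16 with library totals alone.

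ZEB2, the paralogue of ZEB1, lies at chr15:7498879-7631347 on the plus strand and has 5 annotated transcripts. Its level was 262.2, 273.8 and 266.6 CPM in control, 272.0, 290.8 and 282.2 CPM in OIM and 289.9, 301.3 and 289.5 CPM in bFGF libraries. The bFGF libraries lay above all control libraries, and OIM overlapped both. The log2 fold change was 0.13 for bFGF against control (SE 0.036, edgeR adjusted p = 0.00267), and 0.060 for bFGF against OIM (95% interval -0.016 to 0.14). With library totals alone these were 0.36 and 0.28, still short of the fold limit. The study, using DESeq2, names ZEB2 among the genes upregulated after bFGF, and its text gives no fold change. Here ZEB2 was not called at the limits of the study's methods. ZEB2 shares 1150 exon bases with LOC110257199, a gene on the opposite strand with 58 to 112 counts per library. The strand setting of the counting is not given in the sources used here, so reads in the shared bases cannot be assigned with certainty.

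SNAI1 (Snail, chr17:51546446-51552498, plus strand) and SNAI2 (Slug, chr4:79264880-79268475, plus strand) had fold changes of opposite sign under bFGF. SNAI1 had 25.6, 25.8 and 27.8 CPM in control, 24.6, 24.3 and 26.1 CPM in OIM and 28.5, 28.6 and 29.5 CPM in bFGF libraries. The bFGF libraries were the highest for SNAI1, and control and OIM overlapped. The log2 fold change against OIM was 0.21 (SE 0.061, edgeR adjusted p = 0.00541), under the fold limit.

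SNAI2 had 36.1, 35.1 and 37.8 CPM in control, 41.5, 35.8 and 41.9 CPM in OIM and 26.01, 24.0 and 25.0 CPM in bFGF. The bFGF libraries were the lowest with no overlap, and OIM replicate 2 lay within the control range. SNAI2 fell by 0.67 on the log2 scale against OIM (SE 0.066, edgeR adjusted p = 1.99e-08) and fell by 0.54 against control (SE 0.066, edgeR adjusted p = 4.00e-07). It was the only member called lower in these comparisons.

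TWIST1 (chr9:88286911-88290131, minus strand) is the more abundant of the Twist genes in these cells. It had 31.4, 31.0 and 30.4 CPM in control, 34.96, 33.0 and 36.3 CPM in OIM and 43.5, 42.1 and 39.8 CPM in bFGF libraries. No groups overlapped, and the order was control, OIM, bFGF. The log2 fold change was 0.17 for OIM against control (edgeR adjusted p = 0.0541), 0.27 for bFGF against OIM (adjusted p = 0.000296) and 0.43 for bFGF against control (adjusted p = 8.98e-07), all short of the fold limit. The last of these was 0.66, and called, when libraries were scaled by their totals alone.

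TWIST2 (chr15:138228640-138276341, plus strand) was the least abundant member, with 3.21, 5.13 and 3.70 CPM in control, 4.54, 3.36 and 4.36 CPM in OIM and 7.12, 7.77 and 8.003 CPM in bFGF. Control and OIM overlapped, and the bFGF libraries lay above both. TWIST2 rose by 0.90 on the log2 scale against OIM (SE 0.16, edgeR adjusted p = 4.96e-05) and by 0.92 against control (SE 0.16, edgeR adjusted p = 3.71e-05). Its coefficient of variation was 24.9% in control and 15.5% in OIM, the widest of the members in those groups. The difference between OIM and control was 0.019 (95% interval -0.33 to 0.36).

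**Figure D3:**
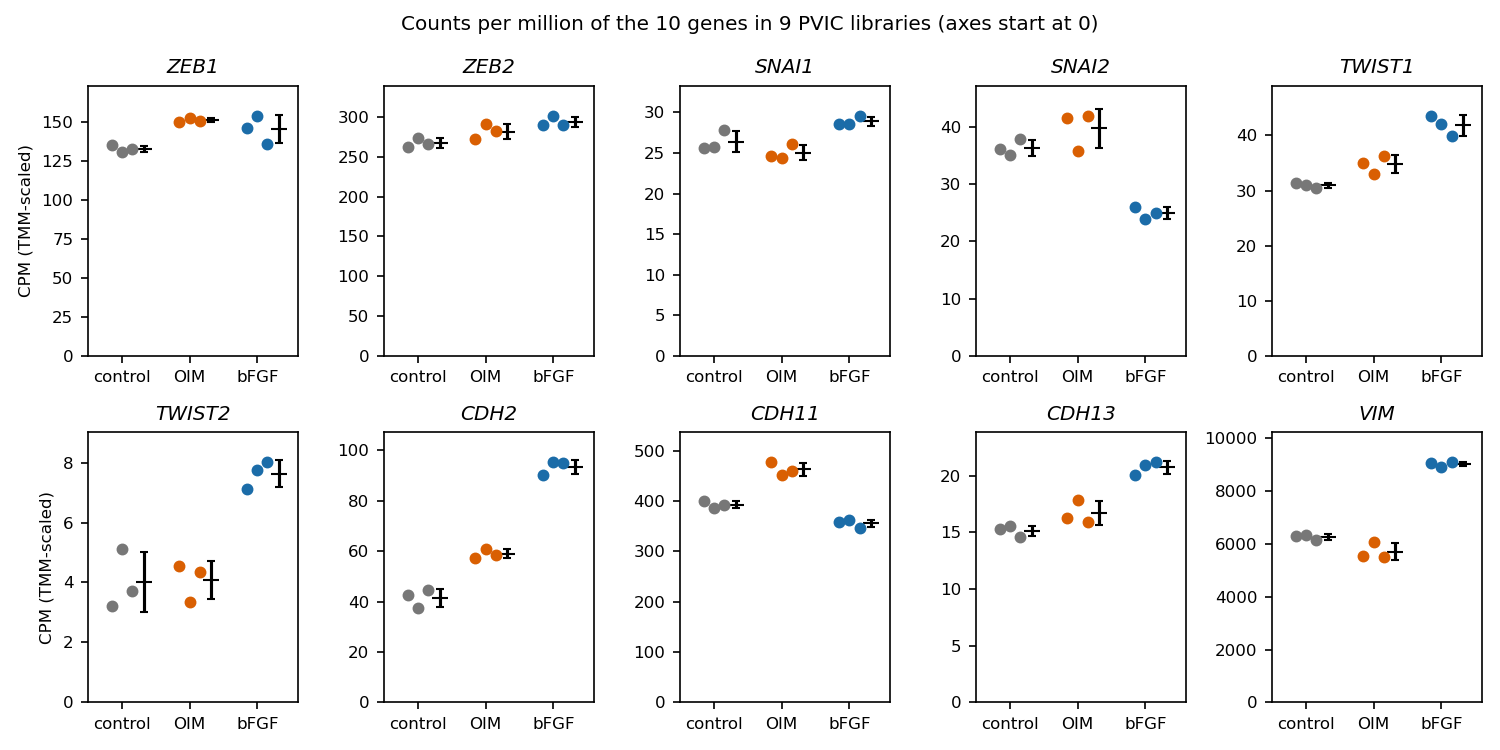
TMM-scaled CPM of each gene in the 9 libraries (points) with the group mean and SD of 3 libraries (black), each axis starting at 0. SNAI2 is lowest in bFGF libraries (24.0 to 26.01 CPM), whereas TWIST2, CDH2 and VIM are highest there.

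CDH2 was the only member called in each of the 3 comparisons. The gene lies at chr6:112396713-112629073 on the minus strand, with 16 exons. Its level was 42.7, 37.5 and 44.4 CPM in control, 57.5, 61.0 and 58.4 CPM in OIM and 90.1, 95.2 and 94.99 CPM in bFGF libraries. The groups stood in the order control, OIM, bFGF with no overlap. CDH2 rose by 0.51 on the log2 scale in OIM (SE 0.055, edgeR adjusted p = 2.82e-06), by 0.66 from OIM to bFGF (SE 0.054, edgeR adjusted p = 1.19e-09) and by 1.17 from control to bFGF (SE 0.055, edgeR adjusted p = 1.94e-13). The OIM call was close to the fold limit. It was lost without control replicate 2, at 0.44, and without OIM replicate 2, at 0.48.

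CDH11 is also the cadherin of osteoblasts. The gene lies at chr6:25782746-25933753 on the minus strand and has 6 annotated transcripts. CDH11 had 399.7, 386.6 and 393.2 CPM in control, 476.9, 451.2 and 461.0 CPM in OIM and 358.4, 361.6 and 347.2 CPM in bFGF. OIM libraries were the highest and bFGF libraries the lowest, with no overlap. The log2 fold change was 0.24 for OIM against control (SE 0.034, edgeR adjusted p = 7.68e-05) and -0.38 for bFGF against OIM (SE 0.034, edgeR adjusted p = 5.33e-09), both under the fold limit. For bFGF against control it was -0.14 (edgeR adjusted p = 0.000919), which turned to 0.080 with library totals alone.

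CDH13 (chr6:4809752-5832188, minus strand) had 15.3, 15.5 and 14.6 CPM in control, 16.3, 17.9 and 15.9 CPM in OIM and 20.1, 21.0 and 21.2 CPM in bFGF. As for TWIST1, the groups did not overlap and stood in the order control, OIM, bFGF. The log2 fold change was 0.31 for bFGF against OIM (edgeR adjusted p = 0.000777) and 0.46 for bFGF against control (adjusted p = 1.36e-05), both short of the fold limit. These were 0.53 and 0.68 with library totals alone, and both were called.

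Of the summed level per kb of these 3 cadherins, CDH11 made up 79.6% ± 0.385 in control, 78.3% ± 1.14 in OIM and 65.6% ± 0.947 in bFGF (SD, n = 3). The part of CDH2 was 11.2% ± 0.797, 13.2% ± 0.579 and 22.9% ± 0.635 in the same order, and that of CDH13 was 9.23% ± 0.413, 8.51% ± 0.594 and 11.5% ± 0.319. CDH11 remained the most abundant of the 3 in every library. The percentages depend on the annotated exon lengths.

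VIM, which encodes vimentin, the main intermediate filament protein of mesenchymal cells, lies at chr10:43516441-43526172 on the plus strand. It had 6282, 6332 and 6129 CPM in control, 5520, 6067 and 5499 CPM in OIM and 9048, 8908 and 9069 CPM in bFGF libraries. The OIM libraries lay below control and the bFGF libraries above both, with no overlap. VIM rose by 0.66 on the log2 scale against OIM (SE 0.036, edgeR adjusted p = 1.76e-12) and by 0.53 against control (SE 0.035, edgeR adjusted p = 5.10e-11). For OIM against control the log2 fold change was -0.13 (SE 0.035, edgeR adjusted p = 0.0146), under the fold limit. VIM alone took 0.585% to 0.600% of all gene counts in control, 0.519% to 0.587% in OIM and 0.983% to 1.01% in bFGF libraries.

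Ratios of related genes within a library do not depend on the scaling. The log2 ratio of SNAI2 to SNAI1 counts was 0.50, 0.45 and 0.44 in control, 0.75, 0.56 and 0.68 in OIM and -0.13, -0.26 and -0.24 in bFGF libraries. SNAI2 counts thus exceeded SNAI1 counts in each control and OIM library and were below them in each bFGF library. The mean difference between bFGF and OIM was -0.87 (SE 0.070, 2-sided exact permutation p = 0.1, BH-adjusted p = 0.133 over 12 tests). With 3 libraries against 3, 0.1 is the smallest p this test can give.

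The log2 ratio of CDH11 to CDH2 counts was 3.25 ± 0.111 in control, 2.97 ± 0.084 in OIM and 1.93 ± 0.061 in bFGF (SD, n = 3). The groups did not overlap, and bFGF differed from OIM by -1.04 (SE 0.060) and from control by -1.32 (SE 0.073), each with an exact permutation p = 0.1. For TWIST2 to TWIST1 the ratio was -2.97 ± 0.349, -3.10 ± 0.179 and -2.45 ± 0.148, and bFGF differed from OIM by 0.64 (SE 0.13, exact permutation p = 0.1) without overlap, while bFGF and control overlapped. The ZEB2 to ZEB1 ratio stayed between 0.86 and 1.09 over the 9 libraries. It was lower in each OIM library than in any control or bFGF library. It differed by -0.11 between OIM and control (SE 0.038, exact permutation p = 0.1), by 0.12 between bFGF and OIM (SE 0.043, exact permutation p = 0.1) and by 0.0060 between bFGF and control (SE 0.049, exact permutation p = 0.9).

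**Figure D4:**
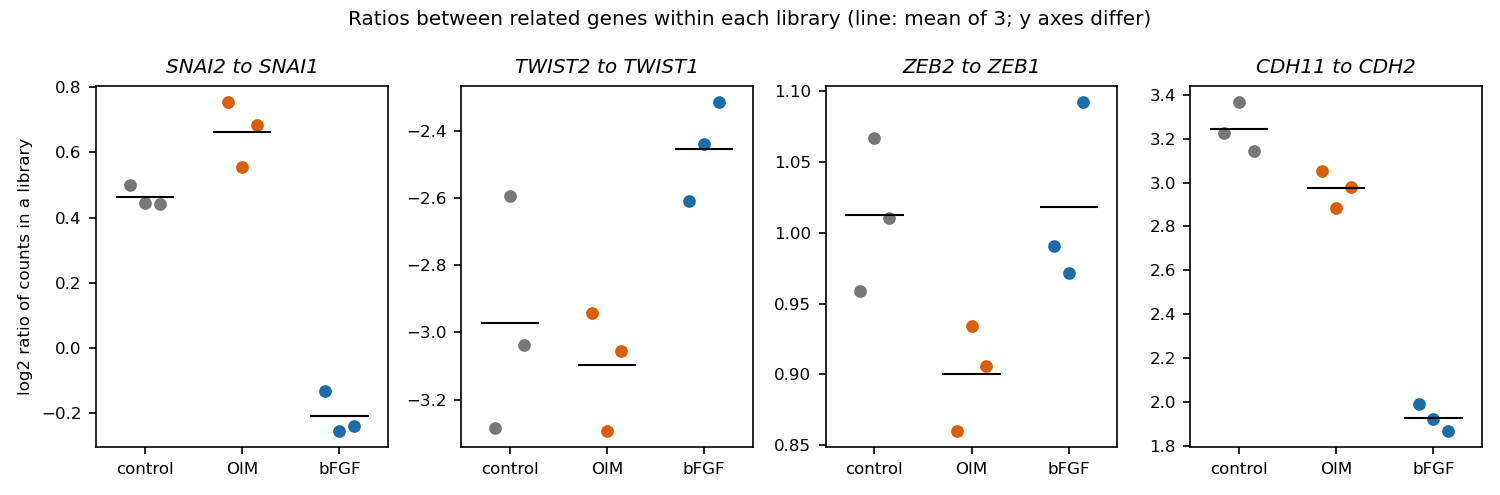
Log2 ratio of counts within each library (points) for 4 pairs of related genes, with the mean of 3 libraries per group as a line. SNAI2 to SNAI1 crosses 0 only in bFGF libraries (mean -0.21), and CDH11 to CDH2 is lowest there (mean 1.93), while ZEB2 to ZEB1 spans 0.86 to 1.09.

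Partners and co-factors of the transition factors made up a list of 18 genes, of which 17 were tested. In bFGF against OIM 3 were called higher and 2 lower (list median 0.13, all genes -0.0029), and with library totals alone 5 were called higher. Under TMM, 3 and 2 of 17 are near and below the 17.7% and 18.4% of all genes. LOXL2, a lysyl oxidase that stabilises Snail protein, stood at 2604 ± 140 CPM in control, 1597 ± 27.8 in OIM and 401 ± 4.25 in bFGF (SD, n = 3), and fell by 1.99 against OIM (edgeR adjusted p = 4.00e-19). It had also fallen by 0.70 in OIM against control, the 1 call of this list there. PRRX1, a homeobox factor of mesenchymal cells, stood at 1089 ± 12.3, 931 ± 9.85 and 511 ± 10.1 CPM and fell by 0.86 against OIM. FOXC1, a forkhead factor, rose by 0.81 and FBXL14, a ubiquitin ligase subunit that targets Snail and Twist proteins, by 0.69. Against control, bFGF gave 4 higher and 3 lower calls in this list, near the 18.9% and 20.0% of all genes.

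Most epithelial genes had too few counts to be tested. Of 11 factors that oppose the transition 4 were tested, and of 16 epithelial junction and keratin genes 3 were tested. In bFGF against OIM, edgeR called 0 of each list higher, and at an unadjusted p under 0.05 with the fold limit, or by DESeq2, it was also 0. The called lower genes were OVOL1, from 28 to 39 counts in OIM to 7 to 13 in bFGF, and CLDN7, from 2 to 29 counts in OIM to 0 to 3 in bFGF, which passed the count filter only through control and OIM libraries. In bFGF against control 0 and 0 were called higher and 1 and 2 lower, DSP (desmoplakin) being the further gene, at -0.61. The DSP value was close to the fold limit, and its call depends on how libraries are scaled. Of all genes 18.4% were called lower in bFGF against OIM and 20.0% against control. In OIM against control 0 of either list was called by edgeR in either direction, with 1 factor higher at an unadjusted p under 0.05 with the fold limit and 1 by DESeq2.

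Among 19 other cadherins measured, 7 were tested and 4 were listed at 0 in every library (CDH9, CDH10, CDH12 and CDH16). In bFGF against OIM 5 of these 7 were called higher and 1 lower, where 17.7% and 18.4% of all genes were. CDH6 (K-cadherin) had 1 to 2 counts in control and OIM libraries and 45 to 81 in bFGF libraries, through which alone it passed the count filter, so its call was fixed in part by the filter. CDH7 rose by 2.67 on the log2 scale, from 17 to 34 counts in OIM to 116 to 154 with bFGF, and CDH18 rose by 1.93, from 25 to 46 to between 94 and 121. CDH4 (R-cadherin) rose by 1.06 in OIM against control and fell by 1.92 from OIM to bFGF, with 132 to 225, 356 to 422 and 80 to 106 counts in the 3 groups. Against control, bFGF gave 4 higher and 2 lower calls, where 18.9% and 20.0% of all genes were called. All of these cadherins lay far below CDH11, with a summed level of 12.4 to 22.1 CPM.

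CDH5 (VE-cadherin), the endothelial cadherin, stood at 5.89 ± 0.985 CPM in control, 5.80 ± 0.554 in OIM and 8.24 ± 0.784 in bFGF (SD, n = 3) and rose by 0.51 against OIM (edgeR adjusted p = 0.00214). The summed level of the 10 endothelial markers was 74.1 to 76.1 CPM in control, 88.4 to 90.2 in OIM and 170.7 to 180.2 in bFGF libraries, of which ERG alone made up 51.5 ± 0.405, 66.8 ± 0.873 and 137.4 ± 5.05 CPM. Of these 10 markers 7 were called higher in bFGF against OIM (17.7% of all genes) and 5 against control (18.9%). In both comparisons 0 were called lower (18.4% and 20.0% of all genes). The counts were the same by DESeq2 and at an unadjusted p under 0.05 with the fold limit. Of the called genes, KDR and CLDN5 (the latter only against OIM) passed the count filter only through the bFGF libraries, where they were high, so their calls were fixed in part by the filter. In OIM against control 0 were called by edgeR, by DESeq2 or at an unadjusted p under 0.05 with the fold limit, and the list median was -0.028. VWF had at most 38 counts in a library. In both bFGF comparisons the summed level of these markers was higher with bFGF, as were SNAI1, TWIST1, TWIST2, CDH2, CDH13 and VIM without overlap. In OIM against control that sum was higher through ERG, and ZEB1, TWIST1, CDH2, CDH11 and CDH13 were higher and VIM lower, without overlap. The part of these markers in those results was not tested.

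Catenins and other adherens junction genes gave 3 higher and 4 lower calls of 15 tested in bFGF against OIM (list median -0.42; all genes 17.7% and 18.4%), and the same numbers against control (all genes 18.9% and 20.0%). CTNNB1 (beta-catenin), which links classical cadherins to actin and Wnt signalling, had a log2 fold change of -0.33 against OIM (edgeR adjusted p = 1.24e-08), under the fold limit. CTNNA2 (alpha-N-catenin), the partner most closely linked with N-cadherin in neurons, rose by 1.59 from 1.03 ± 0.259 to 3.11 ± 0.106 CPM (SD, n = 3). NECTIN1, a nectin of cell contacts, rose by 1.24, while CTNND2 (delta-catenin) fell by 1.28 and VCL (vinculin) fell by 1.14. OIM against control gave 0 calls in this list by edgeR and by DESeq2, with 1 lower at an unadjusted p under 0.05 with the fold limit.

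Of 13 other intermediate filament genes, lamins and linkers 8 were tested, and 3 were called higher and 2 lower in bFGF against OIM and against control. The shares of all genes were 17.7% higher and 18.4% lower against OIM, and 18.9% and 20.0% against control. The 2 of 8 lower are near them. Nestin (NES), which forms filaments together with vimentin, went from 26.4 ± 1.74 CPM in control and 31.1 ± 7.13 in OIM to 207 ± 4.99 in bFGF (SD, n = 3), a rise of 2.73 against OIM (edgeR adjusted p = 2.92e-15). LMNB1 and LMNB2, the B-type lamins of the nucleus, rose by 2.28 and 1.52. SYNM (synemin) fell by 1.84. DES, the muscle filament gene, had 16 to 37 counts in control, 133 to 298 in OIM and 1 to 4 in bFGF libraries, and was the 1 call in OIM against control (log2 fold change 3.33, edgeR adjusted p = 4.96e-06).

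Mesenchymal effector genes went mostly down with bFGF, in contrast to VIM, CDH2 and TWIST2. Of 23 tested, 5 were called higher and 15 lower against OIM (list median -0.72), where 17.7% and 18.4% of all genes were. Against control 5 were called higher and 14 lower (list median -0.62), where 18.9% and 20.0% of all genes were. The 5 higher calls are near the share of all genes. ACTA2 (smooth muscle alpha-actin), the marker of activated myofibroblasts, fell by 3.52 from 8449 ± 1384 CPM in OIM to 738 ± 52.8 in bFGF (SD, n = 3). THBS1 (thrombospondin) fell by 2.04, TAGLN (transgelin) fell by 1.84 and FN1 (fibronectin) fell by 0.58, while WNT5A rose by 2.66. The FN1 value was close to the fold limit, and its call depends on how libraries are scaled. In OIM against control edgeR called 0 of 23, also at an unadjusted p under 0.05 with the fold limit and by DESeq2.

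The 6 smooth muscle markers summed to 698 to 713 CPM in control, 781 to 1142 CPM in OIM and 142 to 157 CPM in bFGF libraries. All 6 were called lower in bFGF against OIM and 5 against control, and 2 (MYH11 and ACTG2) higher in OIM against control. Of all genes 18.4% and 20.0% were lower and 17.7% and 18.9% higher in the bFGF comparisons, and 1.49% higher in OIM against control. In lists this short, 1 or 2 calls in a bFGF comparison are not far from these shares. Of the interstitial markers 1 was called higher (POSTN, 1.46) and 4 lower in bFGF against OIM, and 1 higher and 5 lower against control, while 0 were called in OIM against control by edgeR, by DESeq2 or at an unadjusted p under 0.05 with the fold limit. Leukocyte markers gave 2 lower calls in each bFGF comparison (CD14 and CD163) and melanocyte markers 1 (MLANA), with 0 for both lists in OIM against control by edgeR, by DESeq2 or at that unadjusted p, and no epithelial marker had enough counts to be tested. The summed levels of the smooth muscle, interstitial and leukocyte markers, like the level of SNAI2, were lower in each bFGF library than in any control or OIM library. COL1A1, COL1A2 and COL3A1 made up most of the interstitial sum, at 27002, 18879 and 10699 CPM in control and 9886, 8849 and 6606 with bFGF. LUM (0.011), PDGFRA (-0.059), PDGFRB (0.13), THY1 (-0.40) and FBLN1 (-0.37) were not called against OIM. CD14 made up most of the leukocyte sum, at 13.7 CPM in control, 13.5 in OIM and 7.68 with bFGF. The summed melanocyte markers overlapped between the groups. Whether the mix of cell states had a part in the SNAI2 values was not tested.

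**Figure D5:**
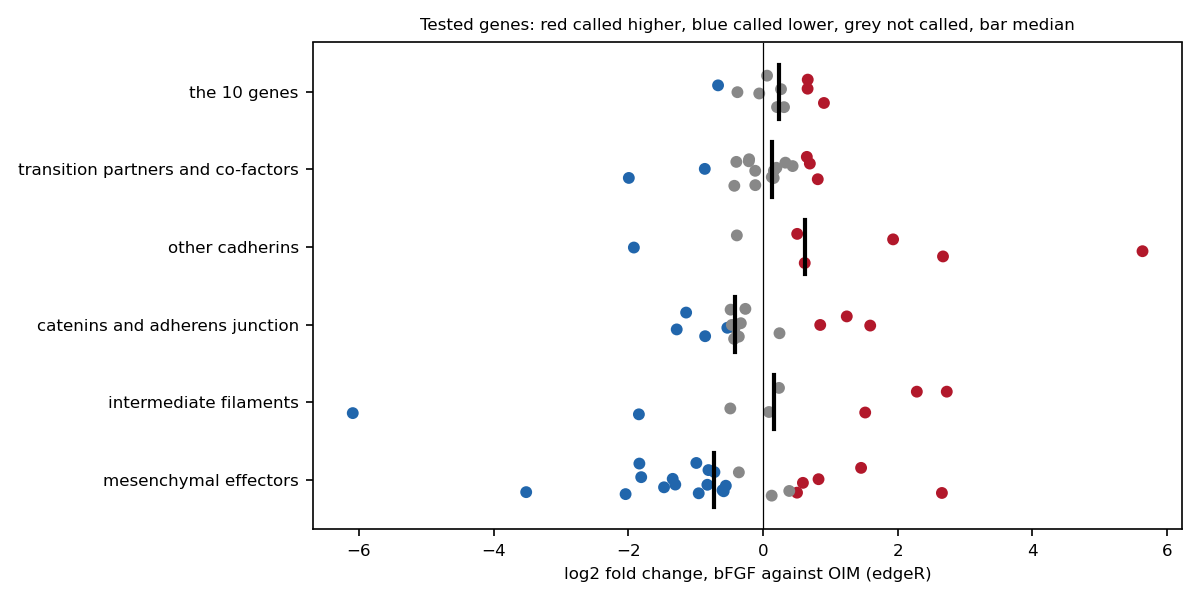
Log2 fold change for bFGF against OIM of each tested gene in the 10-gene set and 5 lists of related genes, coloured by call, with the list median as a bar. The 10 genes lie between -0.67 and 0.90 (median 0.24), and the mesenchymal effectors have a median of -0.72.

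The loci of the 10 genes also carried non-coding and circular transcripts. XR_002336134.1 (LOC110255584), a non-coding RNA on the same strand as ZEB1 at chr10:42014480-42105014, lies within the span of ZEB1 and shares 0 exon bases with its annotated transcript. It had 1882 to 2843 estimated counts per library, with log2 fold changes of -0.098 for OIM against control (edgeR adjusted p = 0.978) and -0.0012 for bFGF against OIM (edgeR adjusted p = 0.996). XR_002345075.1 lies opposite the start of CDH2 and shares 139 exon bases with it. It had 2.84 to 48.1 estimated counts, and the log2 fold change for bFGF against control was 1.69 (edgeR adjusted p = 0.155). Of 2253 non-coding transcripts tested, 5 lay at or within 5000 bases of the members, and edgeR called 0 of these in any comparison, with 1 in each comparison at an unadjusted p under 0.05 with the fold limit.

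Circular RNAs, closed loops made by back-splicing, were listed at 3 of the 10 loci, 10 at ZEB1, 5 at VIM and 1 at CDH11. Counts at VIM and CDH11 reached at most 9 and 4 for one circular RNA in a library. The entry at CDH11 and circRNA_0823 at VIM lay on the strand opposite to the gene, with neither end at an annotated exon of it. The circular RNAs of ZEB1 summed to 94 to 109 counts in control, 81 to 111 in OIM and 67 to 89 in bFGF libraries, or 1.32 ± 0.148, 1.08 ± 0.276 and 0.984 ± 0.150 per 100 ZEB1 gene counts (SD, n = 3). OIM libraries overlapped both other groups, and bFGF libraries lay below control. Relative to all gene counts of a library, bFGF and control overlapped. Of the 813 counts in all, 586 fell on 2 circular RNAs whose ends both lie at exons of LOC110255584 and not of ZEB1. A further pair starts at an exon of LOC110255584 and ends at an exon of ZEB1, so that the back-splice joined exons that the annotation places in separate genes. The circular RNAs at ZEB1 that passed the filter, 3 of 177 tested, had 0 calls by edgeR and 0 at an unadjusted p under 0.05.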

How the data were processed

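Total RNA of 9 PVIC libraries (3 control, 3 OIM and 3 bFGF) was used. The authors deposited 1 table of counts that were not normalized: whole-number counts for 19535 genes and 6179 circular RNAs, and estimated counts for 9888 non-coding transcripts, of which 44.6% of the values were not whole. The labels describe a stranded library with ribosomal RNA removed, and the study's methods a poly-A kit with Cutadapt and STAR on susScr11, whereas the submitters' processing notes name Trimmomatic, HISAT2, StringTie and Sscrofa11.1. The counting program and its strand setting are not given in the sources used here. The 19 unnamed empty columns of the table were not used. Of the gene rows, 25 carry a symbol altered to a date.

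Columns were assigned to groups by the sample labels. Genes passing filterByExpr (13662) were fitted in 1 model over 9 libraries with edgeR 4.0.16 (R 4.3.3), TMM and the quasi-likelihood test, with 6 residual degrees of freedom from the libraries. P-values were adjusted over all genes tested by Benjamini-Hochberg. Genes were called at the limits in the study's methods, 0.05 for the adjusted p and 0.5 for the log2 fold change in either direction. Estimated counts were rounded and tested with the gene library sizes. Ratios used a pseudocount of 0.5 and exact permutation tests. The code was tested on simulated data. Alternatives were DESeq2 1.42.0, other scaling, filters and fold limits, a replicate block and leaving out each library.

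The members and lists were chosen with earlier results of these data known. All 10 members were named. From each list, up to 4 called genes with the widest fold change and a mean count of at least 10 in the higher group could be named in a comparison, and CDH1, CDH5, FN1, ACTA2 and PRRX1 in any case. CTNNB1, LMNB2, DSP, the marker genes and the cadherins at 0 were named after their values were seen. Within groups, no pair of libraries agreed within sampling noise (9 pairs, mean chi-square per gene 4.62 to 18.8). Promoter windows were read from the RefSeq annotation of Sscrofa11.1.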

Additional observations from a re-analysis of the deposited data

How the results depend on the processing

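Of 390 log2 fold changes of the 10 genes recomputed under the alternatives, 377 kept their direction and their side of the call, 4 lost a call, 3 gained one and 6 changed sign. For OIM against control, 3 members were higher and 1 lower with no fold limit, and 0 were higher with a fold limit of 1. Leaving out 1 library at a time gave 0 to 1 higher, CDH2 being lost without control replicate 2 and without OIM replicate 2. For bFGF against OIM, 6 were higher and 2 lower with no fold limit, 0 and 0 with a limit of 1, and with library totals alone 0 were lower. For bFGF against control, 7 were higher and 2 lower with no fold limit, 1 and 0 with a limit of 1, and 5 and 0 with library totals alone. That scaling shifts the whole bFGF group, and it turned ZEB1 to 0.16 against OIM and CDH11 to 0.080 against control. Leaving out 1 library moved the TWIST2 log2 fold change between OIM and control over -0.12 to 0.24, the TWIST2 to TWIST1 ratio difference in that comparison over -0.28 to 0.063 and the ZEB2 to ZEB1 ratio difference between bFGF and control over -0.031 to 0.033. All 3 main values were near 0 or smaller than the spread between replicates, and the cause of each change of sign was not tested. Of 156 list counts, 28 moved by over 1.5 times or away from 0, under no fold limit or library totals alone.

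With the replicate number as a replicate block, 1 and 0 members were called higher and lower for OIM against control, 3 and 1 for bFGF against OIM and 3 and 1 for bFGF against control, as without it. Same-numbered libraries correlated between -0.060 and 0.053 in their deviations from the group means, which gave no sign that the numbers pair the libraries. Whether libraries shared an animal or a batch was not tested. Genes and circular RNAs with few counts, such as CDH6 and the circular RNAs listed at the VIM and CDH11 loci, have wide counting error at this depth.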
